A study of Mus musculus with 6 samples.

Results

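Ephrins, semaphorins, netrins and slits are the 4 classical ligand families of axon guidance, and with their Eph, plexin, neuropilin, Unc5 and Robo receptors they were followed here across the exit from naive pluripotency. Members were taken by gene symbol, and 67 of the 51826 counted genes matched: 14 Eph receptors, 8 ephrins, 20 semaphorins, 11 plexins and neuropilins, 7 slits and Robo receptors, and 7 netrins and Unc5 receptors. The RNA came from wildtype V6.5 cells, a mouse embryonic stem cell line, in a pair of states with 3 libraries each. ESC were wildtype embryonic stem cells kept with LIF and 2i, the latter being inhibitors of GSK3 and MEK. EpiLC were wildtype epiblast-like cells of the same line on day 3 without LIF and without 2i, and the medium of both held 15% fetal bovine serum. No label says whether the libraries of a group came from separate cultures, so p-values measure the spread between these libraries, which may be technical. One line in culture was used, and embryos and other lines are not analysed here.

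Some guidance molecules work at contacts between cells, and others are secreted. Eph receptors are tyrosine kinases that meet ephrins on the surface of a neighbouring cell, and both partners signal: A-type ephrins are held by a lipid anchor and B-type ephrins span the membrane. Semaphorins act through plexins, which switch off small GTPases of the Ras and Rap type, and the secreted class 3 semaphorins mostly need a neuropilin to reach a plexin. Netrins signal through Dcc or neogenin and through Unc5 receptors, and slits through Robo receptors. In embryos these families also sort cells and set tissue boundaries, and several of them shape blood vessels.

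Library totals ran from 9710410 to 22879812 counts, and levels are given in CPM, counts scaled to a common library size with TMM factors, which serve comparison between libraries but not between genes. Where genes are compared with each other, RPKM is used, the same value per kilobase of merged exons. The labels fitted the state markers: 8 of 8 naive genes fell and 6 of 6 formative genes rose by edgeR. Summed CPM over the markers of other cell types ran from 47.2 to 52.5 in ESC and 65.1 to 71.6 in EpiLC for 10 endothelial genes, 12.6 to 17.4 and 26.2 to 30.2 for 10 fibroblast genes, 263 to 398 and 185 to 197 for 10 neural genes (70.8 to 71.4 and 96.2 to 119 without Stmn2), 14.8 to 20.0 and 29.6 to 32.3 for 6 neural crest genes, 10.1 to 23.0 and 18.5 to 28.9 for 7 mesoderm genes, and 8.61 to 13.1 and 16.7 to 19.2 for 8 primitive endoderm genes. Some markers were near 0 throughout, some rose and some fell. Emcn was at 0 in every library, and Cdh5, Lum and Postn were under 1 CPM in each. Of the endothelial list, Flt1 rose 18.6-fold to 31.4 CPM and Tek fell 3.47-fold to 3.73 CPM. Of the fibroblast list, Col1a2 rose 27.1-fold to 3.83 CPM and Pdgfrb fell 4.05-fold to 1.82 CPM. Dcn, also of that list, went from 0 to 143 counts, at least 76.8-fold higher against 3 counts over the ESC group. Of the neural list, Stmn2 fell 3.34-fold (281 and 84.1 CPM), Pax6 rose 42.4-fold to 9.14 CPM, and Dcx had 0 counts in ESC and 32 in EpiLC. Of the members of these 6 lists that could be tested, 1 rose and 1 fell of 5 endothelial genes, 4 and 1 of 6 fibroblast, 5 and 1 of 7 neural, 2 and 2 of 4 neural crest, and 2 and 2 of 5 primitive endoderm genes, while 2 of 3 mesoderm genes rose and the remaining one was not called. Over all genes tested, 32.0% were called higher and 32.6% lower in EpiLC. The part of cells of these types in the results below was not tested. ESC replicate 3 stood apart: 24 of the 52 guidance genes tested (46.2%) lay over 1.5-fold from the mean of the other ESC libraries. Of the 24, 15 were higher and 9 lower in it. Over all genes tested, 3218 of 14996 (21.5%) lay as far away. For several results that rest on this library, values by library or without it are given. In bulk RNA, a change in the number of cells of a type and a change in RNA per cell cannot be told apart.

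Guidance genes changed in both directions, and the rises included steeper ones than the falls. After the filter on low counts, 52 of the 67 could be tested with edgeR's quasi-likelihood test at an adjusted p under 0.05, and 23 were higher and 14 lower in EpiLC. Over all 14996 genes tested, 64.6% were called, 32.0% higher and 32.6% lower, which is also the background of each family's count. Among the calls, 19 of the higher and 7 of the lower reached a 2-fold change, where the background was 17.0% and 12.4% of genes, and 15 and 2 reached 4-fold, where it was 8.3% and 5.69%. The median log2 fold change, EpiLC minus ESC, was 0.44 for the guidance genes and 0.01 for all genes tested. The groups of libraries did not overlap for 38 of the 52, against 70.2% of all genes tested. Without ESC replicate 3, 29 were higher and 15 lower of 53 tested, where the shares over all genes were 38.0% and 38.7%. A gene enters the test through whichever state holds its counts, so these counts describe the genes tested and not all 67.

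**Figure D1:**
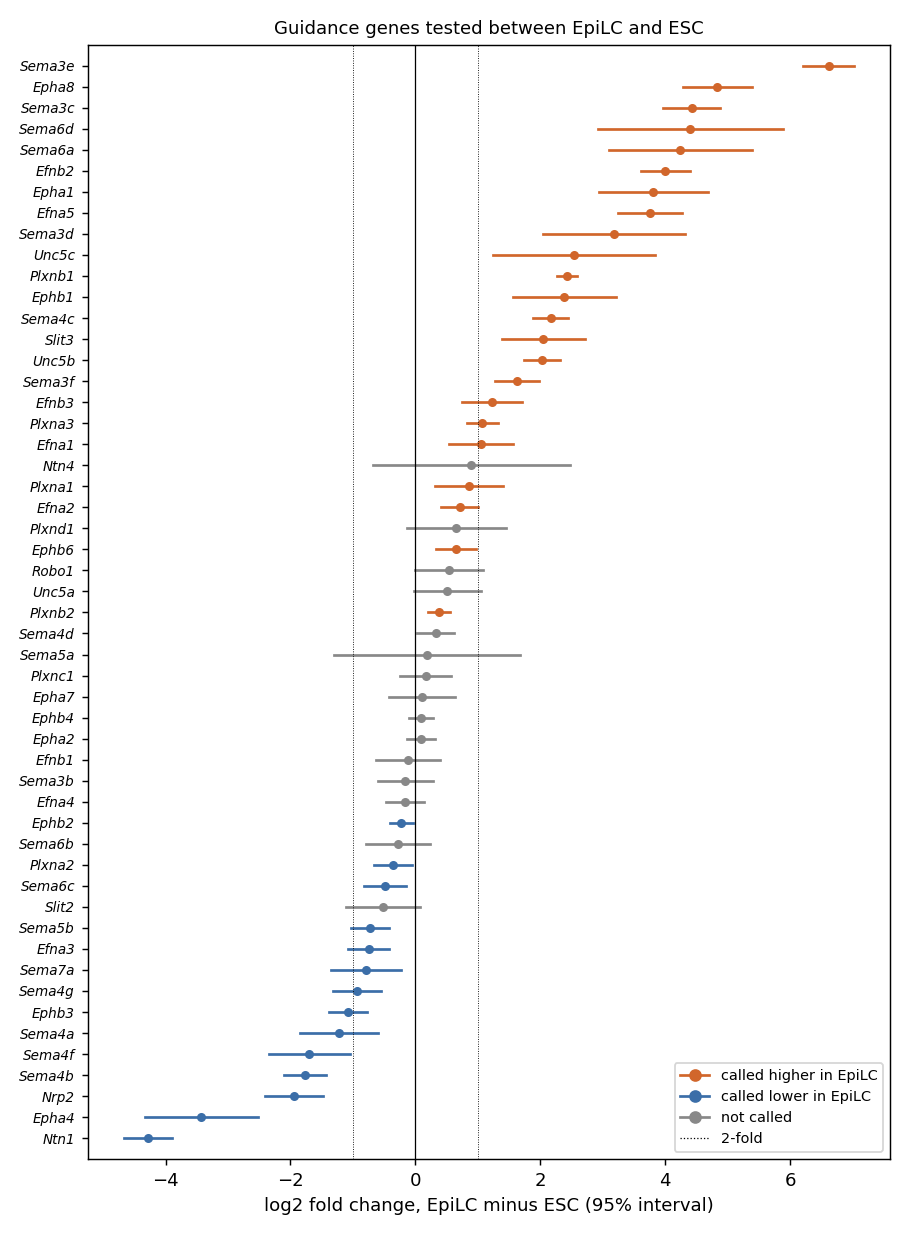
Log2 fold change (EpiLC minus ESC, horizontal axis) with its 95% interval for the 52 guidance genes tested, ordered by value, with calls in colour and dotted lines at 2-fold. Sema3e stands at the top at 6.62 and Ntn1 at the bottom at -4.28, and 15 genes are not called.

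The Eph receptors kept their most abundant members and exchanged others. Epha2 and Ephb4 held similar levels in both states, Epha4 fell, and Epha1 and Epha8 rose. Of 10 receptors tested, 4 were higher, 3 lower and 3 not called.

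Among the A-type receptors, Epha2, a receptor known from epithelia and early embryos, measured 178, 172 and 165 CPM in ESC replicates 1 to 3 and 204, 156 and 189 CPM in EpiLC replicates 1 to 3. The groups overlapped, and the interval of its log2 fold change, -0.14 to 0.32, lay within 2-fold. Epha4, which binds ephrins of both types (ENSMUSG00000026235, chromosome 1, 77367185 to 77515088 on GRCm38, as for all gene positions), measured 57.0, 51.9 and 127 CPM in ESC and 9.43, 6.41 and 6.07 CPM in EpiLC. Each ESC library was above each EpiLC library, with ESC replicate 3 the highest, and the gene fell 10.8-fold (log2 fold change -3.43, SE 0.39, adjusted p = 0.000116, or -2.92 without that library). Epha1 (ENSMUSG00000029859, chromosome 6, 42358487 to 42373268), the first receptor of the family to be described, went the other way, from 7.16, 5.59 and 1.05 CPM to 69.2, 67.7 and 70.8 CPM. The EpiLC libraries lay close together and far above the ESC libraries, of which replicate 3 was the lowest, and the rise was 14.0-fold (log2 fold change 3.81, SE 0.38, adjusted p = 5.09e-05, or 3.44 without that library). Its exons share 236 bases (6.01%) with Zyx on the opposite strand, whose own level was 8.36 and 37.0 CPM in ESC and EpiLC, so part of the Epha1 count is uncertain. Epha8, a receptor of the developing midbrain, was near 0 in ESC (0.311, 0.406 and 0.174 CPM) and stood at 10.3, 8.98 and 8.84 CPM in EpiLC, 28.5-fold higher (log2 fold change 4.83, SE 0.24, adjusted p = 1.33e-06). Epha7 was not called (9.97 and 11.1 CPM, interval -0.42 to 0.64), and its log2 fold change was 0.11, or -0.12 without ESC replicate 3.

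Per length, Epha2 led the A-type receptors in each library, with 75.6% ± 6.77 in ESC and 64.0% ± 2.55 in EpiLC of their summed level. Behind it the order changed. Epha4 held 19.7% ± 9.29 in ESC and 1.48% ± 0.282 in EpiLC, and Epha1 2.46% ± 1.72 in ESC and 29.0% ± 2.48 in EpiLC. The Epha4 share was highest in ESC replicate 3 (30.4%, against 14.7% and 14.0% in ESC replicates 1 and 2). The sum itself was 48.8 ± 3.05 RPKM in ESC and 61.1 ± 5.88 RPKM in EpiLC. In ESC the order was Epha2, Epha4 (9.78 RPKM), then Epha1 and Epha7 (1.17 and 1.01 RPKM), whose libraries overlapped. In EpiLC it was Epha2, Epha1 (17.6 RPKM), Epha8 (1.99 RPKM) and Epha7 (1.12 RPKM), with no overlap between neighbours.

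Among the B-type receptors, Ephb4 kept a level within 2-fold and Ephb3 fell. Ephb4, the partner of ephrin-B2 in vessels, measured 70.4, 67.4 and 58.5 CPM in ESC and 69.1, 68.9 and 71.8 CPM in EpiLC, overlapping groups with an interval of -0.10 to 0.28. Ephb3, known from gut and neural crest, measured 44.8, 37.2 and 32.8 CPM and 17.7, 17.0 and 19.7 CPM, with each EpiLC library below each ESC library, and fell 2.11-fold (log2 fold change -1.08, SE 0.13, adjusted p = 0.000159). Ephb2 was lower by a small amount (36.1 and 30.8 CPM, log2 fold change -0.23, adjusted p = 0.0351 by edgeR), a call that was lost with DESeq2 (adjusted p = 0.0629), with upper quartile scaling (0.0723), with library totals (0.0890) and without any library but ESC replicate 3. Ephb6, which lacks an active kinase, rose 1.57-fold to 8.11 CPM, and Ephb1 rose 5.22-fold at a low level (0.215 and 1.21 CPM). The summed B-type level was 24.1 ± 2.42 RPKM in ESC and 22.6 ± 0.468 RPKM in EpiLC, with Ephb4 at 58.5% ± 0.882 in ESC and 66.8% ± 0.154 in EpiLC.

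Of the 8 ephrins, ligands of these receptors, all were tested, and 5 were higher, 1 lower and 2 not called, next to 32.0% and 32.6% of all genes. Ephrin-B2 and ephrin-A5 rose by over 10-fold. Efnb2, the membrane-spanning ligand of Ephb4 and Epha4 (ENSMUSG00000001300, chromosome 8, 8617434 to 8661242), measured 4.41, 5.14 and 7.49 CPM in ESC and 90.7, 80.9 and 93.3 CPM in EpiLC. The states were far apart relative to their spread, and the rise was 16.0-fold (log2 fold change 4.0, SE 0.17, adjusted p = 5.57e-07). Efna5, a lipid-anchored ligand of the A-type receptors that can also bind Ephb2 (ENSMUSG00000048915, chromosome 17, 62604184 to 62881317), went from 1.14, 1.22 and 2.09 CPM to 22.4, 17.7 and 17.1 CPM, 13.6-fold (log2 fold change 3.76, SE 0.22, adjusted p = 3.05e-06). Smaller rises were seen in Efnb3 (1.40, 1.31 and 1.66 CPM in ESC, 3.71, 3.51 and 2.86 CPM in EpiLC, 2.35-fold, adjusted p = 0.00103 by edgeR) and Efna1 (2.75, 1.98 and 3.57 CPM and 5.62, 5.56 and 5.36 CPM, 2.07-fold, adjusted p = 0.00327 by edgeR). In neither did the groups overlap. Efna2 rose 1.64-fold to 10.4 CPM and Efna3 fell 1.68-fold to 7.57 CPM. Efnb1, an X-linked ligand, was not called (4.77 and 4.52 CPM). Efna4 was not called either (14.5 and 13.0 CPM, adjusted p = 0.286 by edgeR), and without ESC replicate 3 it was called lower (log2 fold change -0.27, adjusted p = 0.0243).

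Efna1, Efna3 and Efna4 are neighbours on chromosome 3, all read from the minus strand, with 32.8 kb between the first pair and 10.4 kb between the second, and their log2 fold changes were 1.05, -0.75 and -0.17. Exons of Efna3 and Efna4 share 14.1% and 10.5% of their bases with antisense transcripts, Gm15998 and 4731419I09Rik, which had 11 and 43 counts in all. Per length, the A-type ephrins summed to 19.2 ± 1.77 RPKM in ESC and 23.9 ± 1.0 RPKM in EpiLC, and Efna4 was the first of them in both states, while the share of Efna5 was 1.96% ± 0.831 in ESC and 19.8% ± 2.39 in EpiLC. The B-type ephrins summed to 2.67 ± 0.107 RPKM in ESC and 15.2 ± 0.904 RPKM in EpiLC. Efnb2 made up 31.3% ± 10.3 in ESC and 84.4% ± 1.30 in EpiLC of that sum, and Efnb1 51.4% ± 12.9 in ESC and 8.61% ± 0.725 in EpiLC. In ESC, Efnb1 and Efnb2 overlapped per length with 1.38 and 0.829 RPKM, through replicate 3 only. The Efnb1 share was 60.6%, 57.0% and 36.7% in ESC replicates 1 to 3, and the Efnb2 share 23.4%, 27.8% and 42.9%.

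**Figure D2:**
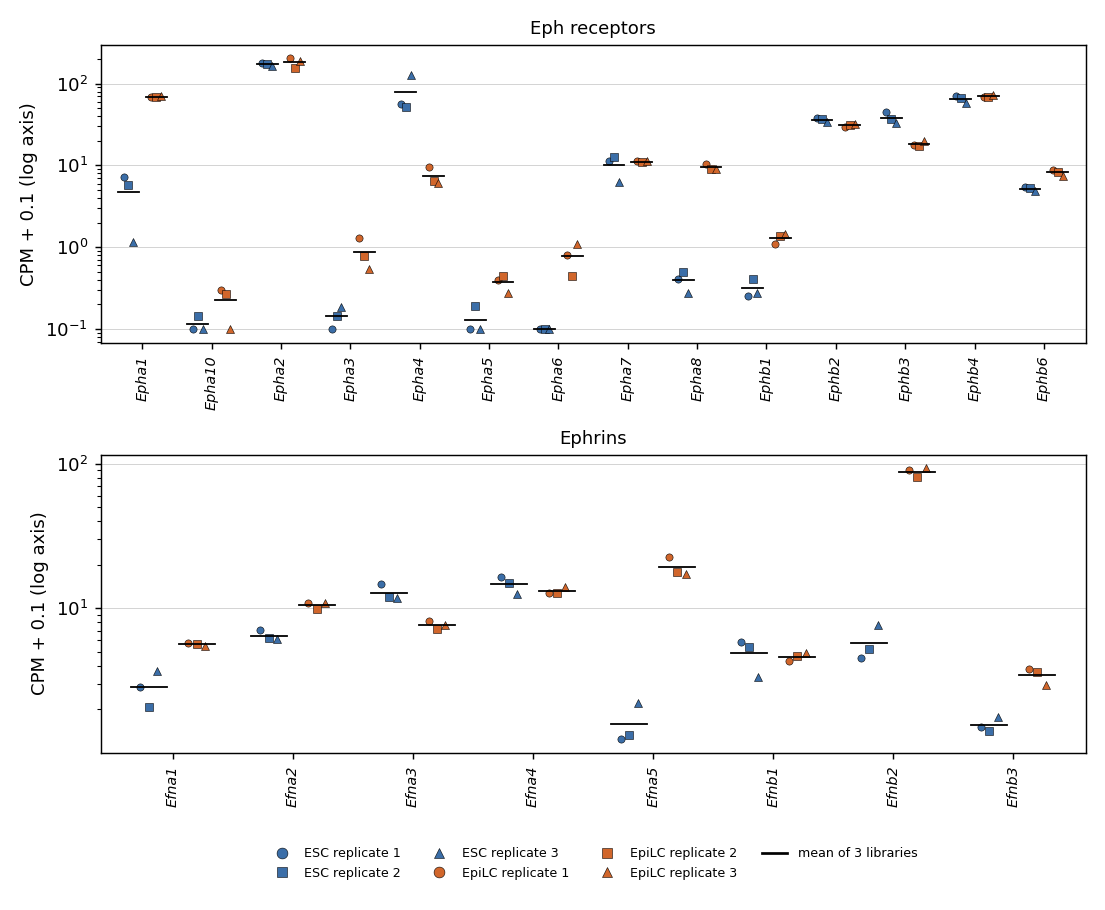
Level of each Eph receptor and ephrin in every library (CPM plus 0.1, log axis), with the 3 libraries of a state as separate symbols and their mean as a line. Epha1, Epha8, Efna5 and Efnb2 are higher in each EpiLC library than in any ESC library, Epha4 is lower, and Epha2 and Ephb4 overlap.

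The secreted class 3 semaphorins contained the steepest rise of all guidance genes tested. Sema3e and Sema3c, low in ESC, became abundant in EpiLC, Sema3f and Sema3d rose too, and Sema3b was not called. Sema3e (ENSMUSG00000063531, chromosome 5, 14025276 to 14256689), a ligand that binds plexin-D1 without a neuropilin, measured 1.97, 1.76 and 0.871 CPM in ESC and 158, 151 and 170.4 CPM in EpiLC. That was a 98.1-fold rise (log2 fold change 6.62, SE 0.18, adjusted p = 8.13e-08), and the log2 value lay between 6.41 and 6.78 over the alternative settings and left-out libraries. Sema3c (ENSMUSG00000028780, chromosome 5, 17574281 to 17730268), known from heart and neural crest development, went from 2.96, 2.30 and 4.79 CPM to 69.1, 67.1 and 68.5 CPM, 21.5-fold (log2 fold change 4.43, SE 0.20, adjusted p = 7.51e-07). Sema3f, a repellent that prefers neuropilin-2, measured 3.94, 3.42 and 3.83 CPM and 13.2, 10.8 and 10.6 CPM, 3.10-fold higher in EpiLC (adjusted p = 3.61e-05 by edgeR). Sema3d stayed low, at 0.156, 0.0901 and 0.697 CPM and 2.71, 1.88 and 2.41 CPM, 9.06-fold higher in EpiLC (log2 fold change 3.18, adjusted p = 0.000647 by edgeR, or 4.16 without ESC replicate 3, which held most of its ESC counts). In each of these 4 genes every EpiLC library was above every ESC library. Sema3b, a ligand encoded 72.3 kb from Sema3f on chromosome 9, was not called (10.7 and 9.54 CPM, interval -0.60 to 0.28).

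Sema3a, the founding repellent of the class, was too low for the test: it had 0 counts in the ESC libraries and 28 over the EpiLC libraries, at least 15.0-fold higher against a floor of 3 counts over the ESC group (counting error only). The summed per-length level of the class was 3.70 ± 0.483 RPKM in ESC and 31.5 ± 1.51 RPKM in EpiLC. Sema3b held 60.6% ± 2.57 in ESC and 6.32% ± 1.43 in EpiLC of it, Sema3e 4.65% ± 2.13 in ESC and 54.8% ± 1.92 in EpiLC and Sema3c 12.4% ± 3.14 in ESC and 30.4% ± 1.09 in EpiLC. The first place in the class thus passed from Sema3b in ESC (2.24 RPKM) to Sema3e in EpiLC (17.2 RPKM).

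Sema3d, Sema3a and Sema3e follow each other on the plus strand of chromosome 5, with 536 and 423 kb between them, and Sema3c lies further along the same chromosome. Because these 4 genes were each higher in EpiLC, and from low or 0 levels, the windows around their RefSeq starts (250 bases before to 50 after, GRCm38.p6, plus strand) are shown to let their base composition be compared, with each CG pair in capitals. They lie at chr5:12382916-12383215, chr5:13396534-13396833, chr5:14025026-14025325 and chr5:17574566-17574865. The GENCODE spans of the genes begin at 12383385, 13125414, 14025276 and 17574281. The Sema3d window thus ends before its span, that of Sema3a lies far inside and that of Sema3c a short way inside. Only the Sema3e window holds the GENCODE start, so the others may not describe the starts in use here.
Sema3d: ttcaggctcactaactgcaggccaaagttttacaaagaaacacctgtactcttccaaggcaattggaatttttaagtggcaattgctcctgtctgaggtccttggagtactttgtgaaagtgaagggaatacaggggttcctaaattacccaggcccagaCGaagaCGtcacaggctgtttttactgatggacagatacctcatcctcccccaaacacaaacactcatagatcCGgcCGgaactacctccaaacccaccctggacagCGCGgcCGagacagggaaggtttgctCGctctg
Sema3a: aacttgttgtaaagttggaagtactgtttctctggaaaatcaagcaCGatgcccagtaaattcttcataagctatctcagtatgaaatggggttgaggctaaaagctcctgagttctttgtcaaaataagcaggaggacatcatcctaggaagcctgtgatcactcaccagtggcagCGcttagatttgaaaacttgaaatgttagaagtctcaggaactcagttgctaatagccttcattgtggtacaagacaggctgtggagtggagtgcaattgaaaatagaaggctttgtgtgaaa
Sema3e: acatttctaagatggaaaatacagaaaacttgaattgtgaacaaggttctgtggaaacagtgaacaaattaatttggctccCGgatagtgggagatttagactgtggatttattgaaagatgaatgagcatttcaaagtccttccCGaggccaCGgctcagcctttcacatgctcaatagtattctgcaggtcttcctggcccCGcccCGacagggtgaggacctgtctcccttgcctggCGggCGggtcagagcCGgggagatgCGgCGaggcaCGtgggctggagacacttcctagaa
Sema3c: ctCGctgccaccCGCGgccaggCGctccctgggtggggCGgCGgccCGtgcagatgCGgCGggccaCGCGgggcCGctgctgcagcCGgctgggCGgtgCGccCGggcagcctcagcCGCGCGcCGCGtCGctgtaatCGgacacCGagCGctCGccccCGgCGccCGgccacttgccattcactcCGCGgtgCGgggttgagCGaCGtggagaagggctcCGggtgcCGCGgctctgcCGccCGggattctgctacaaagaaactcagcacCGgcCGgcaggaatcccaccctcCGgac
The windows differed widely: Sema3d held 8 CG pairs, Sema3a 2, Sema3e 11 and Sema3c 42, with GC contents of 49.7%, 41.3%, 50.7% and 75.7%. The median was 19.5 CG pairs over the 74 windows of the 58 guidance genes in the RefSeq table, and 7 over all 32851 windows. Of the 4, the Sema3c window lay above the median of the guidance genes and the other 3 below it.

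The membrane-bound semaphorins of classes 4 to 7 went both ways. Sema6a and Sema4c rose, and Sema4b, Sema4a and Sema4f fell. Sema6a, a transmembrane ligand of A-type plexins (ENSMUSG00000019647), measured 1.66, 1.08 and 7.32 CPM in ESC and 52.5, 52.1 and 57.9 CPM in EpiLC. ESC replicate 3 was above the other ESC libraries and still below each EpiLC library, and the rise was 18.9-fold (log2 fold change 4.24, adjusted p = 0.000126 by edgeR, or 5.30 without that library). Sema4c, a ligand of plexin-B2, measured 5.40, 4.96 and 4.44 CPM and 20.9, 23.4 and 22.7 CPM, 4.49-fold higher in EpiLC (log2 fold change 2.17, SE 0.12, adjusted p = 2.18e-06). Its exons share 7.27% of their bases with D430040D24Rik on the other strand, which had 2 counts in all.

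Sema4b (ENSMUSG00000030539, chromosome 7, 80186841 to 80226527), the first of these genes per length in ESC, measured 81.2, 75.7 and 55.6 CPM there and 19.6, 20.5 and 22.1 CPM in EpiLC, a fall of 3.42-fold (log2 fold change -1.77, SE 0.15, adjusted p = 1.73e-05). Sema4a, known from immune cells and retina, measured 11.0, 9.69 and 5.84 CPM and 2.91, 4.36 and 4.29 CPM, 2.33-fold lower in EpiLC (adjusted p = 0.00420 by edgeR). For Sema4f the values were 4.10, 4.51 and 6.79 CPM and 1.61, 1.71 and 1.25 CPM, 3.25-fold lower (adjusted p = 0.000885 by edgeR). In none of these 3 did the groups overlap. Falls under 2-fold were called in Sema4g (6.72 and 3.51 CPM), Sema5b (12.9 and 7.75 CPM), Sema6c (20.2 and 14.6 CPM) and Sema7a (2.31 and 1.33 CPM). The call of Sema6c was lost without ESC replicate 2 or EpiLC replicate 2 or 3 (adjusted p = 0.0670, 0.0737 and 0.0529 by edgeR), and that of Sema7a with DESeq2 (0.0942) and without EpiLC replicate 2 or 3 (0.0962 and 0.0720).

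Sema4d, a ligand of plexin-B1, was not called (17.6 and 21.8 CPM, adjusted p = 0.0561 by edgeR), but it was called higher when ESC replicate 3 (adjusted p = 0.00418) or EpiLC replicate 1 (0.0204) was left out, and under scaling by library totals (0.0326) or upper quartiles (0.0372). Sema5a, which binds plexin-B3, depended on a single library: it measured 5.97, 4.51 and 30.5 CPM in ESC and 14.0, 15.3 and 13.8 CPM in EpiLC, was not called with all libraries (log2 fold change 0.19), and was called higher without ESC replicate 3 (log2 fold change 1.45, adjusted p = 1.38e-07). Without ESC replicate 1 or 2 the value was -0.20 or -0.29. Sema6b was not called (6.42 and 5.19 CPM). Sema6d rose at a low level (2 counts over the ESC libraries against 32 over the EpiLC libraries, ratio 25.8, 95% interval 6.58 to 222), and its fitted log2 fold change of 4.40 became 6.64 without ESC replicate 2, which held the ESC counts. The sum over classes 4 to 7 was 27.9 ± 1.40 RPKM in ESC and 25.1 ± 0.88 RPKM in EpiLC, with Sema4b at 44.7% ± 6.49 in ESC and 14.6% ± 0.458 in EpiLC and Sema6a at 1.41% ± 1.51 in ESC and 24.6% ± 1.04 in EpiLC.

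The series' title names GRHL2, a grainyhead factor, so the letters AACCNGTT of the grainyhead core were searched on both strands of the RefSeq windows. As a second motif CCGGAAGT was searched, an extended form of the ETS site, and shorter ETS forms were not. The grainyhead letters were in 2 of the 74 guidance gene windows (2.70%), against 2.09% of all windows, and the ETS letters in 0 of 74, against 3.89%. The 2 matches were in windows of alternative starts within the genes Sema6d, which rose, and Sema6c, which was lower in EpiLC, at chr2:124653331-124653630 and chr3:95164089-95164388 (GRCm38.p6, plus strand). They are shown with the match in capitals, because it is the same 8 letters in both.
Sema6d: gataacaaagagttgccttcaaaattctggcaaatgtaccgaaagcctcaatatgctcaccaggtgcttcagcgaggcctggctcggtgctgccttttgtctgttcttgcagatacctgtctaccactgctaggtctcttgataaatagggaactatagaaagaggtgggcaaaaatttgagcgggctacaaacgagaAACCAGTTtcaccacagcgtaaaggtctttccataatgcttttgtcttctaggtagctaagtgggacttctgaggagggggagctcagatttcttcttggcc
Sema6c: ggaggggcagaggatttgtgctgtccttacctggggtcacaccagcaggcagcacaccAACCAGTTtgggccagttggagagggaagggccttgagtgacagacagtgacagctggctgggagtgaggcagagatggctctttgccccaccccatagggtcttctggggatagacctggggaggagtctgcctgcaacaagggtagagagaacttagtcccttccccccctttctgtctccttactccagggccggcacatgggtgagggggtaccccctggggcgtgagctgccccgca
The match began 52 bases before the RefSeq start in Sema6d and 192 bases before it in Sema6c. A match of letters is not evidence of binding, and these windows do not reach distal enhancers.

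Among the receptors for semaphorins, Plxnb1 rose and Nrp2 fell, and the most abundant plexins, Plxnb2 and Plxna1, rose by under 2-fold. Of the 8 plexins and neuropilins that passed the filter, 4 rose, 2 fell and 2 were not called. Plxnb1, a receptor of Sema4d (ENSMUSG00000053646, chromosome 9, 109095389 to 109119917), measured 15.8, 15.8 and 16.3 CPM in ESC and 85.1, 84.2 and 87.5 CPM in EpiLC, a 5.37-fold rise with little spread (log2 fold change 2.43, SE 0.07, adjusted p = 1e-07). Plxna3, a partner of neuropilin-2 encoded on the X chromosome, measured 11.7, 10.3 and 12.7 CPM and 24.2, 23.6 and 24.9 CPM, 2.11-fold higher in EpiLC (adjusted p = 5.35e-05 by edgeR). Nrp2, the neuropilin of Sema3f (ENSMUSG00000025969, chromosome 1, 62703285 to 62818695), fell: it measured 36.0, 32.9 and 21.8 CPM in ESC and 8.73, 7.18 and 8.04 CPM in EpiLC, 3.83-fold lower (log2 fold change -1.94, SE 0.20, adjusted p = 6.56e-05). In each of these 3 the groups did not overlap.

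Plxnb2 and Plxna1 led the plexins per length in both states. Plxnb2 rose 1.30-fold (178 ± 14.5 to 232 ± 12.1 CPM, adjusted p = 0.00267 by edgeR). Plxna1 measured 77.2, 76.6 and 149 CPM in ESC and 186, 177 and 183 CPM in EpiLC, 1.81-fold higher (adjusted p = 0.0128 by edgeR), and ESC replicate 3 lay nearer to the EpiLC libraries than the others did (log2 fold change 0.86, or 1.23 without it). Exons of Plxna1 share 10.7% of their bases with the antisense transcript Gm26811, which had 14 counts in all. Plxna2 was lower by a small amount (7.18 and 5.59 CPM, adjusted p = 0.0421 by edgeR), a call lost with DESeq2 (adjusted p = 0.142), with upper quartile scaling (0.0680), with library totals (0.0823) and without any library but ESC replicate 3. Plxnc1, the receptor of Sema7a, was not called (4.56 and 5.04 CPM). The plexins summed to 39.2 ± 7.08 RPKM in ESC and 64.1 ± 1.90 RPKM in EpiLC, and Plxnb2 held 59.6% ± 5.47 in ESC and 46.8% ± 1.21 in EpiLC. In ESC replicates 1 to 3 the plexin sum was 35.6, 34.6 and 47.4 RPKM.

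Ligands and their receptors were set side by side, and the difference between their changes was not tested. Plxnd1, the receptor of Sema3e, measured 3.06, 3.88 and 8.45 CPM in ESC and 6.83, 7.61 and 8.21 CPM in EpiLC and was not called (log2 fold change 0.66, interval -0.13 to 1.45, adjusted p = 0.126 by edgeR), where Sema3e had a log2 fold change of 6.62. Without ESC replicate 3, in which it was highest among ESC, Plxnd1 was called higher (1.10, adjusted p = 2.33e-05). In EpiLC the ligand stood at 17.2 RPKM and the receptor at 1.03 RPKM. Nrp1, the receptor of Sema3a, had 10 counts over the ESC libraries against 9 over the EpiLC libraries and was not tested, so that Nrp2 at 0.674 RPKM made up 96.1% of neuropilin in EpiLC, while Sema3f rose and Nrp2 fell.

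**Figure D3:**
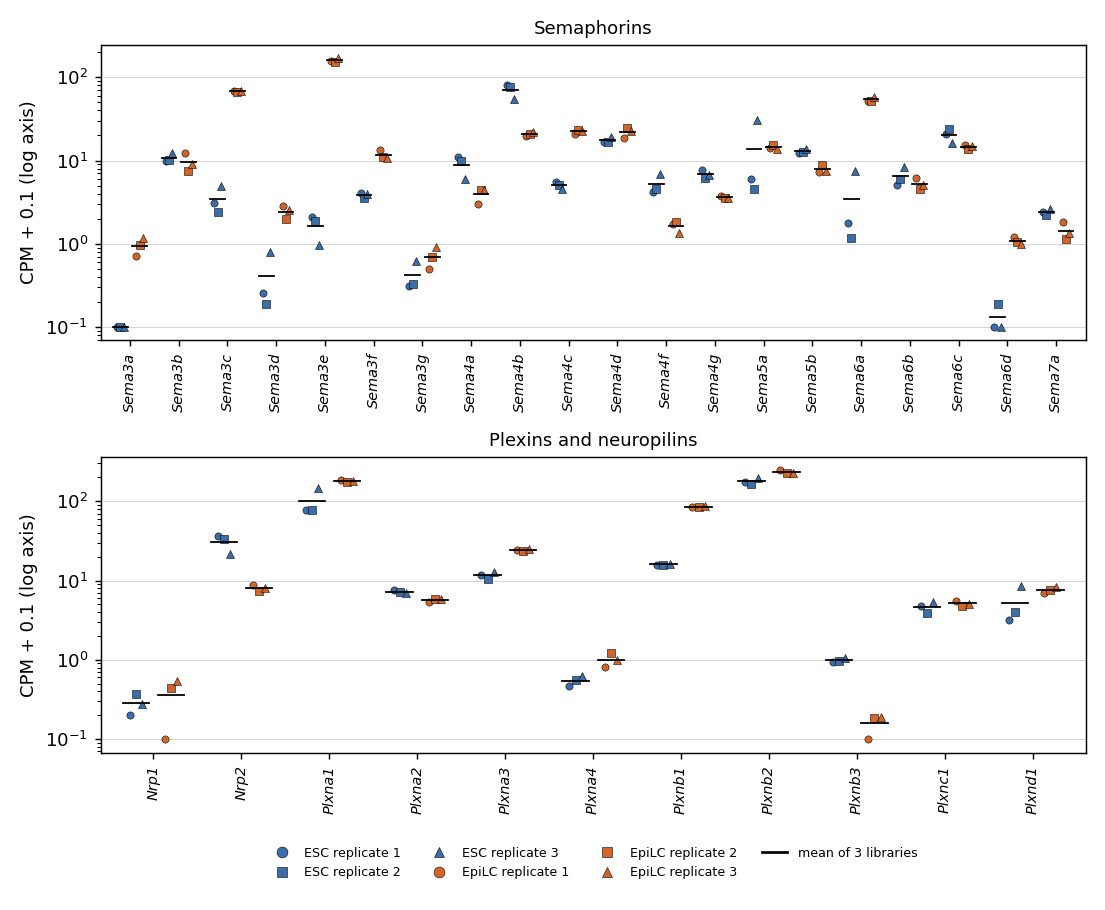
Level of each semaphorin, plexin and neuropilin in every library (CPM plus 0.1, log axis), drawn as separate symbols with the mean of each state as a line. Sema3c, Sema3e and Sema6a rise from low ESC levels, Sema4b and Nrp2 are lower in EpiLC, and Sema5a and Plxnd1 show ESC replicate 3 above the other ESC libraries.

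Netrin-1 fell and its receptor Unc5b rose. Ntn1 (ENSMUSG00000020902, chromosome 11, 68209364 to 68400823) encodes a secreted netrin. It measured 132, 116 and 101 CPM in ESC and 6.83, 6.67 and 4.55 CPM in EpiLC. The fall was 19.4-fold and the steepest among the guidance genes tested (log2 fold change -4.28, SE 0.17, adjusted p = 3.95e-07). Unc5b (ENSMUSG00000020099, chromosome 10, 60762593 to 60831581), a netrin receptor that can signal cell death when unbound, measured 49.4, 42.4 and 47.0 CPM in ESC and 225, 169 and 170.1 CPM in EpiLC, 4.07-fold higher (log2 fold change 2.02, SE 0.13, adjusted p = 3.8e-06). For neither gene did the groups overlap. Neo1, the receptor neogenin, was not called (94.1 and 98.4 CPM, interval -0.11 to 0.24), and Dcc was near 0 in both states (0.21 and 0.241 CPM) and not tested.

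Unc5b made up 91.6% ± 1.52 in ESC and 96.8% ± 0.31 in EpiLC of the summed per-length level of Unc5 receptors, which was 8.07 ± 0.504 RPKM in ESC and 31.1 ± 5.33 RPKM in EpiLC. Unc5c rose 5.81-fold at a low level (0.211 and 1.27 CPM, adjusted p = 0.00421 by edgeR), and its log2 fold change of 2.54 moved to 3.66 when ESC replicate 1 was left out and to 1.90 when ESC replicate 2 was. Unc5a was not called (2.57 and 3.69 CPM). Ntn4, a netrin of basement membranes, was not called (0.639 and 0.967 CPM, log2 fold change 0.89) except without ESC replicate 3 (1.71, adjusted p = 0.00806). The netrins summed to 19.1 ± 2.36 RPKM in ESC and 1.42 ± 0.36 RPKM in EpiLC, and Ntn1 stayed their first member with 18.6 and 0.959 RPKM.

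Slits and Robo receptors were mostly low, and 3 of 7 could be tested. Slit3, a slit of heart and diaphragm development, measured 2.39, 2.25 and 5.40 CPM in ESC and 13.2, 11.5 and 13.8 CPM in EpiLC, 4.14-fold higher with no overlap (log2 fold change 2.05, SE 0.29, adjusted p = 0.000382). Slit2, a repellent of midline-crossing axons, was not called (10.7, 9.10 and 17.6 CPM and 7.23, 8.90 and 9.29 CPM, adjusted p = 0.109 by edgeR) except without ESC replicate 2 (log2 fold change -0.72, adjusted p = 0.0319). Robo1, the first Robo receptor per length in both states, measured 24.2, 21.7 and 11.4 CPM in ESC and 27.2, 30.5 and 27.0 CPM in EpiLC. The groups did not overlap, but the gene was not called (log2 fold change 0.54, adjusted p = 0.0747 by edgeR). It was called higher with library totals (adjusted p = 0.0440), with the replicate number as a block (0.0363), without ESC replicate 1 (0.0357) and without ESC replicate 3 (0.00622). Slits summed to 1.15 ± 0.465 RPKM in ESC and 2.60 ± 0.229 RPKM in EpiLC, and Slit3 held 46.5% ± 5.46 in ESC and 81.6% ± 1.95 in EpiLC.

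**Figure D4:**
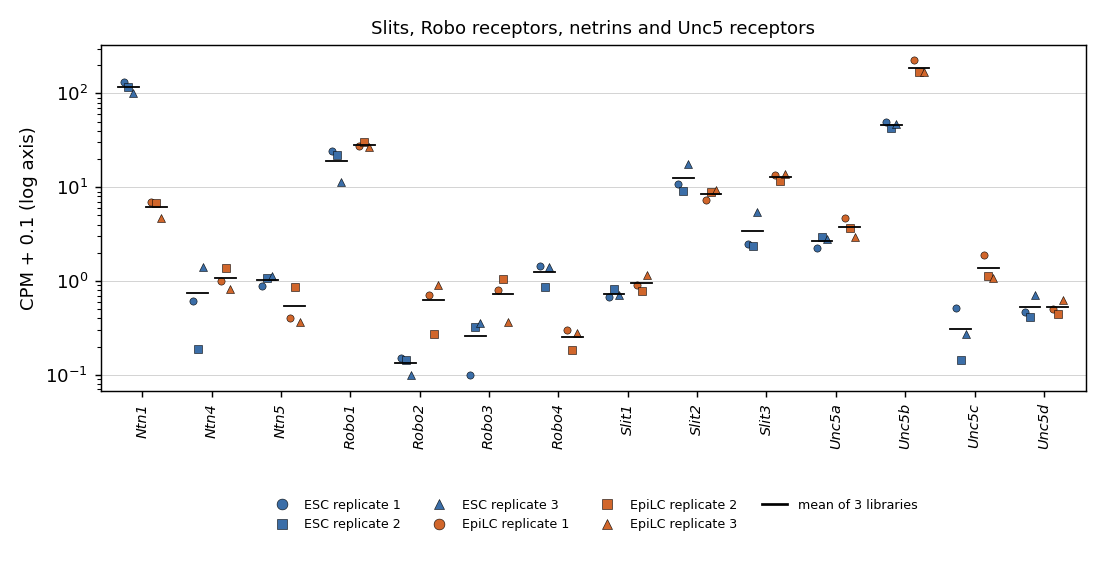
Level of each slit, Robo receptor, netrin and Unc5 receptor in every library (CPM plus 0.1, log axis), with libraries as separate symbols and the mean of each state as a line. Ntn1 is far lower and Unc5b and Slit3 are higher in each EpiLC library, and most Robo receptors lie near 1 CPM or below.

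The 15 guidance genes too low for the test were Epha3, Epha5, Epha6, Epha10, Nrp1, Ntn5, Plxna4, Plxnb3, Robo2, Robo3, Robo4, Sema3a, Sema3g, Slit1 and Unc5d. In 14 of them the mean was under 1 CPM in both states, and the exception was Robo4 (1.14 and 0.155 CPM). With no filter, 4 of the 15 were called higher by edgeR and 2 lower, where 7.06% and 4.06% of the 14498 genes outside the filtered test were called, and 17.3% and 19.0% of all 29494. Robo4, a receptor of endothelium, fell (58 counts over the ESC libraries against 5 over the EpiLC libraries, ratio 7.20, 95% interval 2.91 to 23.0, adjusted p = 0.000516). Plxnb3, the receptor of Sema5a, had 46 counts over the ESC libraries against 2 over the EpiLC libraries and fell as well (ratio 14.3, 95% interval 3.73 to 121, adjusted p = 0.000133 by edgeR). Epha6 went from 0 counts in ESC to 22 in EpiLC, at least 11.8-fold higher against 3 counts over the ESC group. Epha3 had 2 counts over the ESC libraries against 25 over the EpiLC libraries (ratio 20.1, 95% interval 5.02 to 175), and Robo2 2 counts over the ESC libraries against 17 over the EpiLC libraries (ratio 13.7, 95% interval 3.25 to 122). Sema3a was the remaining one. Of the exon bases of Ntn5, 23.4% are shared with Sec1 on the other strand, so its count is uncertain.

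Summed per length by class, 11 of 12 sums did not overlap between the states, where 70.2% of single genes tested did not. Of the sums, 8 were higher in each EpiLC library than in any ESC library. The 3 lower ones were netrins, neuropilins and class 4 to 7 semaphorins, and the B-type Eph receptors overlapped. Single members carried several sums in ESC: Ntn1 held 96.8% of netrin, Nrp2 99.2% of neuropilin and Unc5b 91.6% of Unc5 receptor. The neuropilins summed to 2.57 ± 0.631 RPKM in ESC and 0.701 ± 0.0519 RPKM in EpiLC and the Robo receptors to 1.40 ± 0.384 RPKM in ESC and 1.86 ± 0.134 RPKM in EpiLC. No test was made of these sums.

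**Figure D5:**
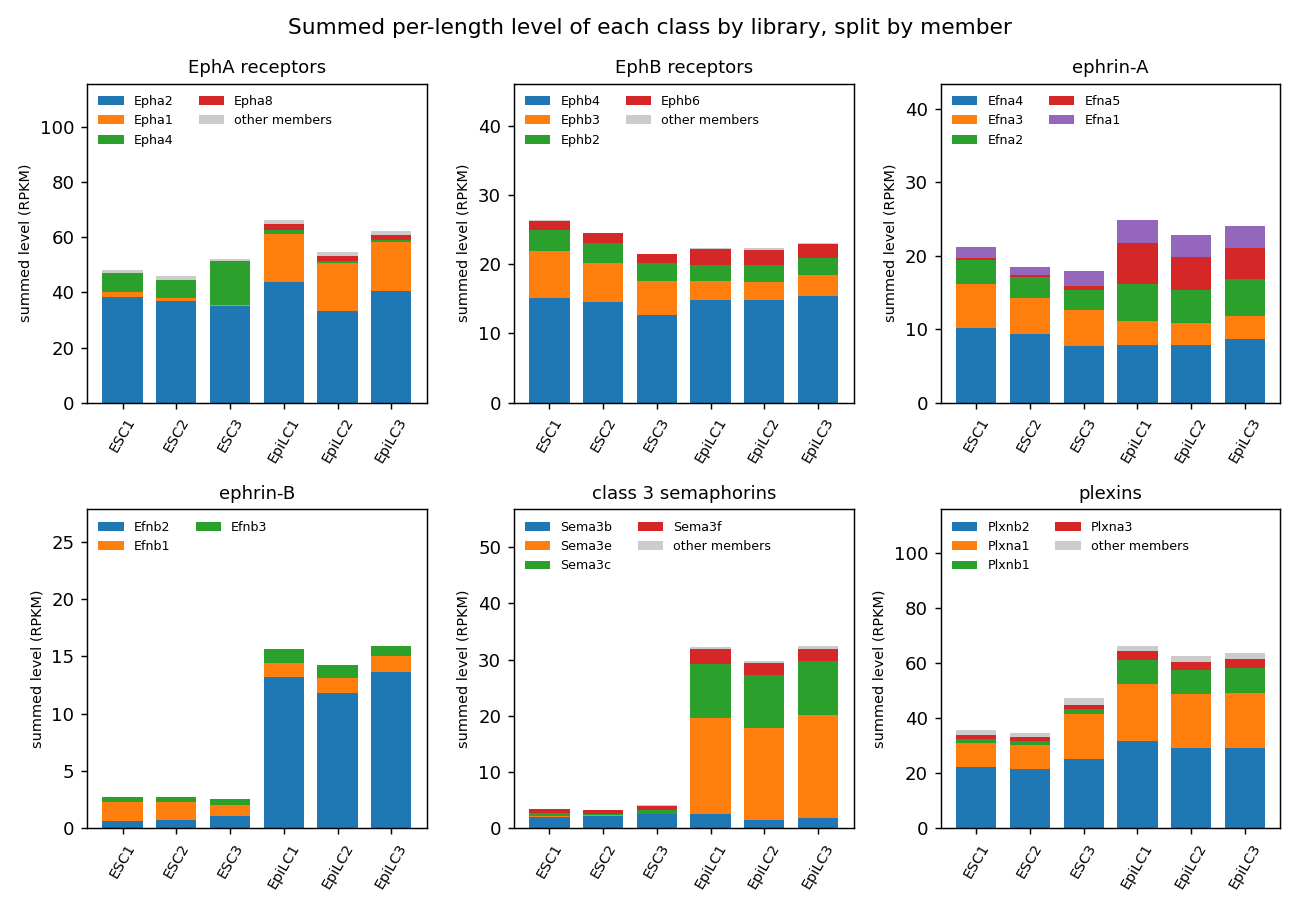
Summed level of 6 classes in each library (RPKM, bars from 0), stacked by member, with members under 3% in both states joined as other members. Efnb2 and Sema3e fill most of their class in EpiLC, Epha1 takes the place behind Epha2 that Epha4 held in ESC, and Plxnb2 and Plxna1 lead the plexins in both states.

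Genes that act with these ligands and receptors but are not among the 67 were read from the same fit. Of 75 listed, 64 could be tested, with 29 higher and 12 lower, and 17 higher and 6 lower by at least 2-fold, next to the background shares given above. Their median log2 fold change was 0.32. All 5 tested co-receptors of plexins and neuropilins were higher. Among them were the adhesion molecule L1cam (1.49 ± 0.234 to 12.7 ± 0.508 CPM, 8.32-fold), the receptor kinase Met (3.57-fold) and the integrin chain Itgb1 (2.66-fold). Co-receptors too low for the test went both ways. Pooled counts in ESC and EpiLC fell for Kdr (79 and 9, ratio 5.45, interval 2.73 to 12.3). Those of Mst1r fell too (64 and 19, ratio 2.09, interval 1.24 to 3.69). Chl1 (3 and 13, ratio 6.98, interval 1.92 to 38.2) and Cd72 (1 and 5, ratio 8.06, interval 0.902 to 381) were higher in EpiLC. Of 14 genes of Eph signalling, 8 were higher and 3 lower, with the exchange factor Vav3 up 15.2-fold (0.506 ± 0.291 to 8.69 ± 1.01 CPM), the adaptor Anks1b up 7.68-fold and the exchange factor Arhgef16 up 4.63-fold. Among 20 tested genes of plexin signalling, 6 were higher and 5 lower. The exchange factor Tiam2 fell 5.54-fold, and of the 5 collapsin response mediators 4 rose, among them Dpysl5 4.36-fold and Crmp1 3.90-fold, while Dpysl3 fell 2.44-fold (95.7 and 39.2 CPM). Dpysl3 was outside the naming rule and was chosen after its values were seen.

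Of 6 genes for FLRT proteins, which bind Unc5 receptors, and for latrophilins, which bind FLRT proteins, 3 were higher and 1 lower. The latrophilins Adgrl2 (17.0 ± 1.56 to 169 ± 16.7 CPM, 9.95-fold) and Adgrl3 (4.27-fold) rose, and Flrt2 fell 2.32-fold. Among 14 genes of Robo, Unc5 or Dcc signalling, 5 were higher and 3 lower, with Ablim1, an actin-binding protein, down 4.85-fold and Evl and Ptpn11 up 1.74-fold and 1.64-fold. Of 5 tested netrin and RGM partners, 2 were higher, Dscaml1 (2.40-fold) and Rgmb (2.22-fold), and 3 were not called.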

How the data were processed

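Counts per gene for 6 libraries of V6.5 cells, 3 ESC and 3 EpiLC, were deposited by the authors as raw counts, made from ribosome-depleted stranded RNA libraries per the labels' protocols. The tools listed, per the submitters' processing notes, were STAR, featureCounts, cutadapt and DESeq2, with build mm10. Their versions, the annotation release and the strand setting of the counting were not given in the sources used here. Without a known strand setting, reads of overlapping antisense genes cannot be told apart.

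Of 51918 rows, 92 were spike-in rows with 0 counts and were left out. Symbols, exon lengths and positions came from GENCODE M21 (GRCm38), where 51633 identifiers matched, and promoter windows from RefSeq GRCm38.p6. Members and gene lists were chosen with earlier results of these data known. edgeR 4.0.16 (R 4.3.3) with TMM, filterByExpr and the two-sided quasi-likelihood test gave log2 fold changes, SE and Benjamini-Hochberg adjusted p over 14996 genes, and the call threshold was 0.05. This applies to every adjusted p unless another tool is named. Intervals are 95%. Ratios of pooled counts have exact binomial intervals that cover counting error only. For a gene with 0 counts in ESC, the bound on the fold takes 3 counts over the whole ESC group as the floor. RPKM is CPM per kilobase of merged exons. Values after ± are SD, n = 3.

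Members called, changed by at least 2-fold and reaching 2 CPM are given by library; uncalled ones of at least 5 CPM are named with values, and up to 3 associated genes per list by fold. Alternatives were DESeq2 1.42.0, upper quartile and total-count scaling, no filter, a replicate block, the longest transcript as the length, and leaving out each library. The edgeR fit, and none of the other steps, was tested on simulated counts with the same dispersion for every gene. Same-numbered libraries were checked for shared deviations, given with the alternatives.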

Additional observations from a re-analysis of the deposited data

How the results depend on the processing

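Against 23 guidance genes higher and 14 lower of 52, scaling by upper quartiles gave 24 and 12 (34.1% and 30.3% of all genes), scaling by library totals 25 and 12 (35.0% and 29.4%), DESeq2 27 and 13 of 66 with an adjusted p (22.2% and 23.7%), and no filter 27 and 16 of 67 (17.3% and 19.0%). Leaving out each library gave 23 to 29 higher and 11 to 15 lower, 17 to 24 and 6 to 9 by at least 2-fold, and 28 to 35 and 9 to 15 associated genes. The median log2 fold change ran from 0.31 (without ESC replicate 2; 0.31 also without EpiLC replicate 2) to 0.52 (without ESC replicate 3). Over all genes, 4188 to 5815 were higher and 4326 to 5915 lower. No scaling moved the median of all genes by more than 0.07 on the log2 scale. With the longest transcript as the length, Efnb2 held 88.3% of B-type ephrin in EpiLC, against 84.4%, and Plxnb2 49.8% of plexin, against 46.8%. Only the lengths differed between these shares, for instance 6855 and 4793 bases for Efnb2 and 7720 and 6497 bases for Plxnb2. The cause of the other differences between settings was not tested.

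Replicate numbers are shared between the states, but nothing in the labels pairs the libraries, and the correlations of same-numbered libraries' deviations were -0.10, 0.0010 and -0.17. With the replicate block, 24 guidance genes were higher and 12 lower (30.6% and 31.0% of all genes) and their median was 0.53. Ephb2 and Plxna2 lost their call and Robo1 gained one.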
